A study of Mus musculus with 6 samples.

Results

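The genes described here lie beside Etv5 on mouse chromosome 16. They are 37 listed neighbours of the gene, from Dvl3 on one side to Lpp on the other, with Etv5 itself left out. A gene was counted as measured where the array annotation gives it a probe set with that single gene symbol, and 34 of the 37 were, among 19938 measured genes in all. Eif4g1, Thpo and Dgkg have no such probe set in the annotation used here and carry no value. Where a gene had several probe sets, the one with the highest mean over the 6 arrays stood for it.

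RNA was taken from mouse pre-B cells transformed by BCR-ABL1, the oncogenic kinase made by the Philadelphia chromosome in acute lymphoblastic leukemia. Cells of 3 samples were wild type for Etv5 and cells of 3 were knockout, and all 6 carry BCR-ABL1 and the strain label 129SvEv. The labels do not give the age or number of the mice, the strain the knockout allele was made in or the exons it lacks. They also do not say whether the 3 samples of a genotype come from different mice or cultures. The p-values therefore cover only how far these samples differ, and part of that may be technical. The comparison is knockout minus wild type, in log2 units of array signal.

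Etv5 encodes an ETS-family transcription factor that binds DNA around a GGAA core. In mice made from targeted embryonic stem cells, the DNA next to the targeted gene is inherited with it, so neighbouring genes can differ between knockout and control animals when the stem cells and the breeding strain differ. A cassette left in a targeted allele can also act on genes close by. For this reason the neighbours of a targeted gene are read separately from the rest of the transcriptome. The chromosome 16 neighbours are a mixed group: genes for protein turnover, transcription and RNA handling, genes for membrane traffic, signalling genes, and a row of genes for blood plasma proteins made in the liver. Within that row Ahsg, Fetub, Hrg and Kng1 encode secreted proteins of the cystatin superfamily.

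Most of the measured neighbours differed little between the genotypes, and a pair of them rose. Fetub, encoding the secreted protease inhibitor fetuin-B, rose 2.5-fold, and Magef1, a MAGE-family gene, rose 1.44-fold. None fell. The 2 risen genes are 5.88% of the 34 measured neighbours, and 4.43% of all measured genes passed in either direction, by limma with Benjamini-Hochberg adjustment over all 35556 probe sets at a threshold of 0.05. The share among the neighbours is thus close to that of the whole array. Taken by direction, 2.42% of all genes rose and 2.01% fell.

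Fetub, whose protein is known for holding back the egg protease ovastacin, stands 17 places after Etv5 in the gene order of the RefSeq gene table. Its RefSeq table entry has a pair of transcription start windows, and the 250 bases before each start are shown because Fetub had the largest change among the neighbours. Ahsg, encoding fetuin-A, is the nearest measured gene before Fetub, and its window is shown as the neighbour whose signal did not pass. Capitals mark each GGAA, the core of ETS factor sites, and its reverse complement TTCC. The sequences are from RefSeq, build GRCm38.p6, all on the plus strand, at chr16:22918132-22918381 and chr16:22919972-22920221 for Fetub and chr16:22891765-22892014 for Ahsg.
Fetub, start 1: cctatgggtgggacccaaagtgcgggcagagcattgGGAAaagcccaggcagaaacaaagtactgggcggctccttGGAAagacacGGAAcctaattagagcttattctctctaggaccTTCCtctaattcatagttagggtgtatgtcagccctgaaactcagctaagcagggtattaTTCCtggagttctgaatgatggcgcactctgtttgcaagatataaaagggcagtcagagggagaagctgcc
Fetub, start 2: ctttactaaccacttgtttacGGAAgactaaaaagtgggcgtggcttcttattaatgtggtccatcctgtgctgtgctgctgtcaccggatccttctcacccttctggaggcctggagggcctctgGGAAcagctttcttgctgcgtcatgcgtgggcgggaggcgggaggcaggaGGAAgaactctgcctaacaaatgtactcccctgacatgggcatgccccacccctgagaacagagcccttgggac
Ahsg: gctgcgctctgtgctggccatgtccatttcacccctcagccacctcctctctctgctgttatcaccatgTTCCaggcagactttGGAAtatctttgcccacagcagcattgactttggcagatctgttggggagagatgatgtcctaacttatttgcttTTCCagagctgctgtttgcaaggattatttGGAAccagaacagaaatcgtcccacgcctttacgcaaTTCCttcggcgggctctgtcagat

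Counting both strands, the Fetub windows hold 5 and 3 copies of the core and the Ahsg window 5. The core is short, and 93.4% of all 32851 promoter windows of this length hold it on either strand. Of the 37 listed genes, 31 have windows in the table, 35 windows in all, and 32 of these hold the core. The longer form CCGGAA, which contains that core, is in 12% of all windows and in 7 of the 35, 1 each for Alg3, Dnajb11, Dvl3, Eif4a2, Psmd2, Rfc4 and Thpo. The form CCGGAAGT, which contains both shorter forms, is in 2.88% of all windows and, among the neighbours, in that of Rfc4 (minus strand, chr16:23127731-23127980, the match in capitals). Neither longer form is in the windows of Fetub or Ahsg. A match describes the letters only and is no measurement of binding. Magef1, Kng1, Masp1, Rtp1, Rtp4 and Tbccd1 are not in the promoter table.
Rfc4: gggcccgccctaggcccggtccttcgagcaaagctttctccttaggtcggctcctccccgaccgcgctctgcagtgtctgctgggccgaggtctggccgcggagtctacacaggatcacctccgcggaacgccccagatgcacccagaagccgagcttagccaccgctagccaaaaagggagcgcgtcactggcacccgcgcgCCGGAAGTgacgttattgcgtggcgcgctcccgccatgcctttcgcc

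Etv5 itself has a pair of probe sets. The one numbered between probe sets of its chromosome 16 neighbours gave 9.30, 9.52 and 9.27 in wild-type samples 1 to 3 and 8.97, 8.91 and 8.92 in knockout samples 1 to 3. The groups did not overlap, and the difference was -0.43 ± 0.080 (SE, limma adjusted p = 0.0467). The second probe set is numbered among chromosome 10 genes and gave 11.48, 11.52 and 11.46 in the wild type against 11.67, 11.88 and 11.73 in the knockout. It was higher in the knockout in all 3 samples and did not pass (0.28, adjusted p = 0.13), but it passed, in the direction opposite to the first, in 2 of 14 alternative fits: with only single-gene probe sets (adjusted p = 0.0486) and with a robust variance trend (adjusted p = 0.0437). The probe positions are not in the files used here, so neither probe set was shown to test the deleted part. Without any 1 of the 6 samples the first probe set no longer passed (adjusted p 0.0712 to 0.18).

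The arrays resembled each other closely, with array medians of 7.79 to 7.84 and correlations of 0.994 to 0.997 within and 0.991 to 0.994 across genotypes, across probe sets. The pre-B cell label was checked on markers: the list mean of 11 measured B cell precursor genes was 12.28 to 12.35 in the wild-type samples and 12.28 to 12.39 in the knockout samples. Of these 11, Pax5 rose (0.43, limma adjusted p = 0.0127), Dntt fell (-0.37, adjusted p = 0.0132) and 9 did not pass. That is 18.2% passing, beside 4.43% of all genes. The groups did not overlap in 6 of the 11 (54.5%), beside 20.5% of all genes. The surrogate light chain gene Igll1 was at 14.29 and 14.25. Itgam, an integrin gene, was the 1 of 7 myeloid markers that passed (0.60, limma adjusted p = 0.0235), or 14.3% beside 4.43% of all genes. Of the 7, 2 were higher and 5 lower in the knockout. Lyz2 was among the lower ones (-0.32, limma adjusted p = 0.473), and its groups did not overlap. The myeloid list mean was 7.04 to 7.14 in the wild type against 6.98 to 7.20 in the knockout. The part of these shifts in the results below was not tested. In bulk RNA, fewer cells of a type and less RNA per cell cannot be told apart.

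Fetub had log2 signals of 7.59 in wild-type sample 2 and 8.01 in wild-type sample 3, with wild-type sample 1 just below sample 3, against 8.92, 9.33 and 9.31 in knockout samples 1 to 3. Wild-type sample 2 and knockout sample 1 were the lowest of their groups, and the groups stayed 0.91 log2 units apart at their closest. The means were 7.87 ± 0.239 and 9.19 ± 0.231 (SD, n = 3 each), a difference of 1.32 ± 0.160 (SE; 95% interval 0.93 to 1.71; limma adjusted p = 0.00951). The call was lost without knockout sample 2 (1.25, adjusted p = 0.0505) or knockout sample 3 (1.26, adjusted p = 0.0501).

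The genes beside Fetub did not pass the test. Ahsg, the fetuin-A gene whose protein keeps calcium phosphate in solution in blood, gave 6.63, 6.91 and 6.63 in the wild type against 6.78, 6.65 and 6.52 in the knockout, with overlapping groups and a difference of -0.07 (95% interval -0.33 to 0.18). Hrg, encoding histidine-rich glycoprotein, is the next measured gene after Fetub and gave 5.51, 5.44 and 5.55 in the wild type against 5.36, 5.36 and 5.40 in the knockout. All 3 knockout values of Hrg were the lower ones, with a difference of -0.12 (95% interval -0.25 to 0.00; limma adjusted p = 0.465), which did not pass. Kng1, the kininogen gene from which bradykinin is made, differed by 0.08 (95% interval -0.09 to 0.26).

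The other secreted proteins in the list did not pass either. Masp1, a protease of the lectin pathway of complement, differed by -0.06, the fat-cell hormone gene Adipoq by -0.03 and the somatostatin gene Sst by 0.04. For liver markers, the list mean of 5 measured hepatocyte genes was 6.67 to 6.92 in the wild type against 6.75 to 6.86 in the knockout, and none of the 5 passed limma, none having an unadjusted p under 0.05. The albumin gene Alb was at 5.92 and 5.90. The deposited values carry no detection calls, so 1015 olfactory receptor genes, which serve in nasal neurons, were taken as a guide to dim signal after the values were seen; 95% of them lay below 7.29. Of the 7 genes of this group, 5 lay below that level on average (Hrg, Kng1, Adipoq, Ahsg and Masp1), and small changes of their transcripts could not be seen there. The same holds for 4 of the 5 hepatocyte genes. Fetub lay above it in all 6 samples, with a wild-type mean of 7.87. Sst and the hepatocyte gene Apoa1 also lay above it on average (8.27 and 7.89), and a signal above the guide is no detection call.

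Magef1 stands 21 places before Etv5, on the opposite side from Fetub. Its family has members that act with ubiquitin ligases, and the RefSeq gene table, which is built on the strain C57BL/6J, classes mouse Magef1 as a transcribed pseudogene. It gave 8.46, 8.48 and 8.36 in the wild type against 8.88, 9.02 and 8.97 in the knockout. Each knockout value was above every wild-type value, with means of 8.43 ± 0.0637 and 8.96 ± 0.0721 (SD, n = 3 each). The difference was 0.52 ± 0.0628 (SE; 95% interval 0.37 to 0.68; limma adjusted p = 0.00905). It lost its call without knockout sample 3 (0.52, adjusted p = 0.0538).

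**Figure D1:**
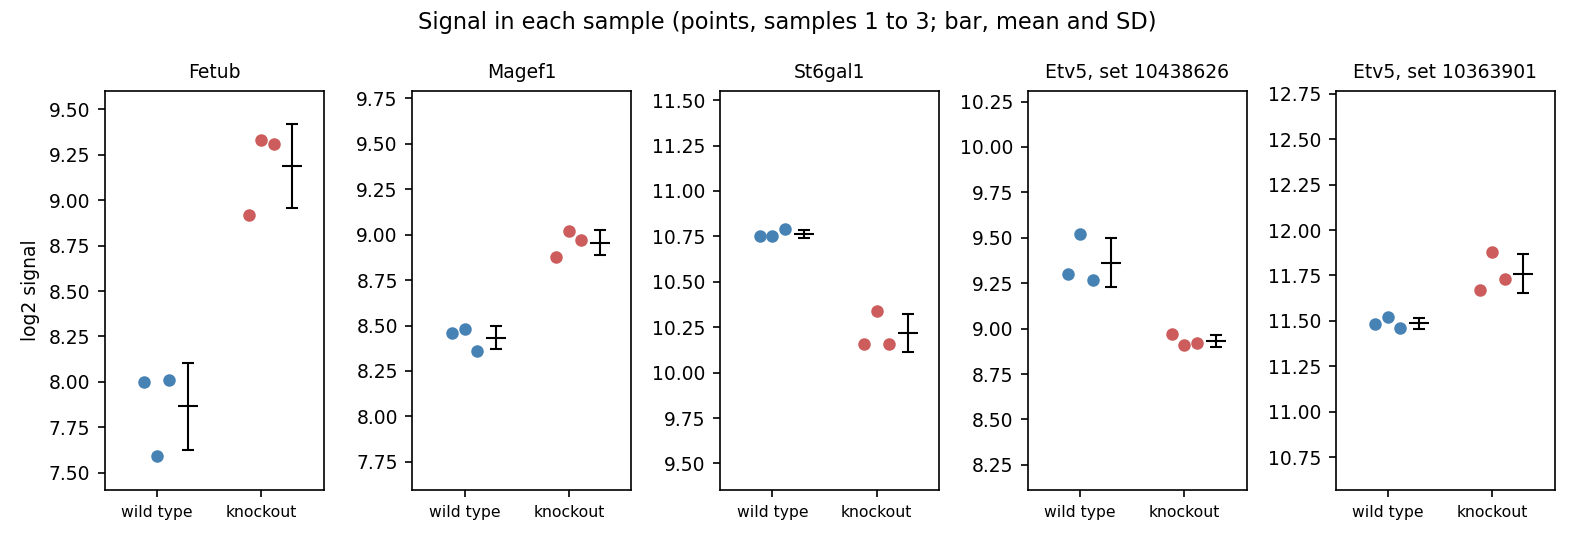
Log2 signal (y axis, each panel spanning 2.2 log2 units) of Fetub, Magef1, St6gal1 and both Etv5 probe sets in the 3 wild-type (blue) and 3 knockout (red) samples, with the mean and SD beside the points. Fetub and Magef1 are higher in every knockout sample, St6gal1 and the first Etv5 probe set are lower, and the second Etv5 probe set is higher.

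On either side of Magef1, the nearest measured neighbours did not pass. Vps8, encoding a subunit of the CORVET tethering complex of early endosomes, differed by -0.09 (95% interval -0.26 to 0.07), and Ephb3, an ephrin receptor gene that is not in the list, by -0.07 (95% interval -0.32 to 0.17). So each of the 2 risen genes lay between measured neighbours whose signals did not pass. Of these neighbours, Ahsg, Hrg and Ephb3 (mean signals 6.69, 5.44 and 7.20) lay below the olfactory receptor guide of 7.29. Small changes of their transcripts could not be seen there. Vps8 lay above it, at 9.75.

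Differences in signal were small in the 32 neighbours that did not pass. In each of these, the 95% interval of the difference lay inside a 1.5-fold change in either direction, which makes 94.1% of the 34 measured neighbours beside 94.7% of all genes. Inside a 1.25-fold change lay 29 of the 34 (85.3%), beside 72% of all genes. For the 10 dim ones among the 32 (below the olfactory receptor guide of 7.29), these intervals bound the array signal and not the transcript, since RMA compresses differences of dim probe sets. The widest limit was that of Clcn2, at 0.39 log2 units (1.31-fold), and the narrowest that of Crygs, one of the dim genes, at 0.13. The median difference of the 34 neighbours was -0.022, beside -0.004 over all genes, with 14 higher and 20 lower in the knockout. The groups did not overlap in 5 of the 34 (14.7%), beside 20.5% of all genes. Apart from Fetub, Magef1 and Hrg these were Clcn2 and Ap2m1.

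**Figure D2:**
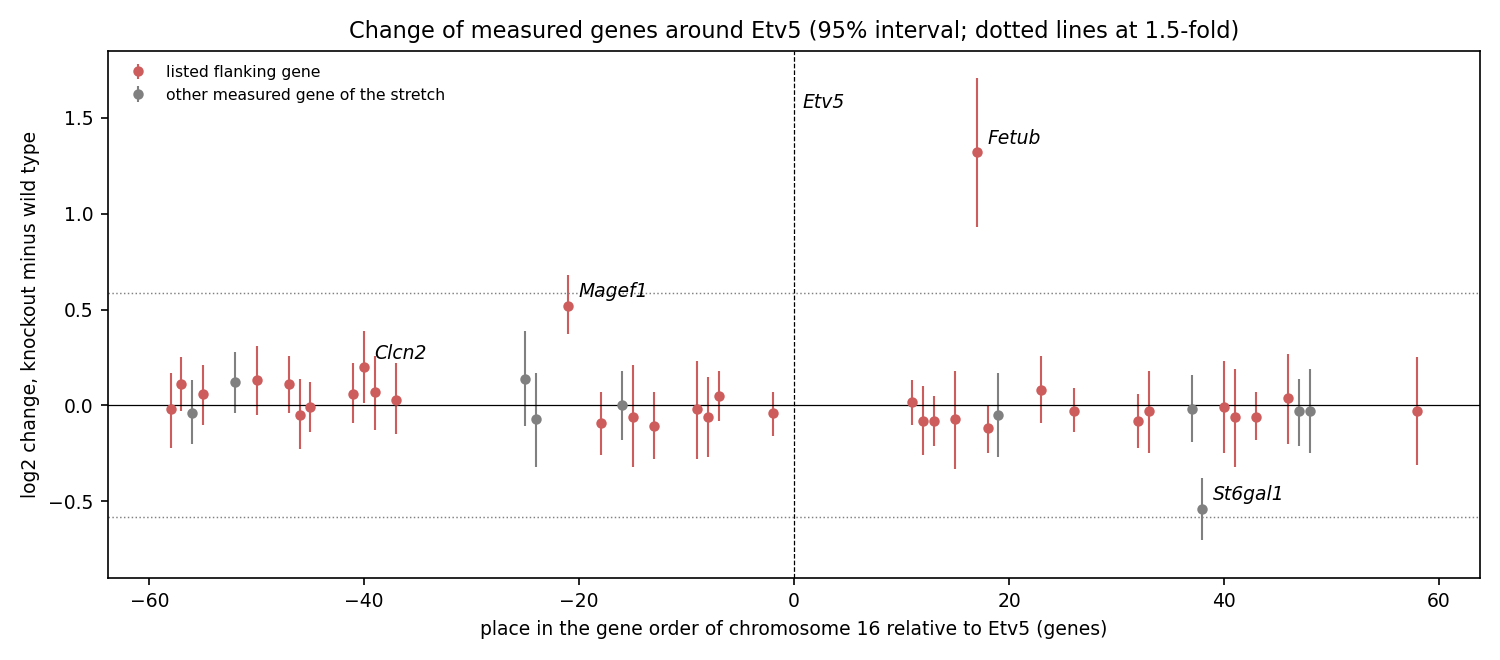
Log2 change, knockout minus wild type, with its 95% interval (y axis) for the 34 measured listed neighbours (red) and 10 other measured genes of the same stretch (grey), by place in the gene order relative to Etv5 (x axis, in genes). Fetub, Magef1 and St6gal1 stand furthest from the 0 line. The other intervals lie between the dotted lines at 1.5-fold, and that of Clcn2 (0.01 to 0.39) lies just above 0.

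The genes closest to Etv5 gave no change that passed. Tra2b, which encodes an activator of alternative splicing, is the nearest measured gene on one side, and it has a pair of probe sets. Its brightest one gave 13.58, 13.61 and 13.57 in the wild type against 13.58, 13.54 and 13.52 in the knockout, with a difference of -0.04 (95% interval -0.16 to 0.07). That probe set is numbered among chromosome 3 genes; the one numbered among chromosome 16 genes gave 12.64, 12.69 and 12.50 against 12.63, 12.41 and 12.58, a difference of -0.07 (95% interval -0.27 to 0.13). The groups overlapped in both.

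Senp2, encoding a protease that removes SUMO from proteins, gave 10.72, 10.76 and 10.68 in the wild type against 10.74, 10.83 and 10.75 in the knockout, a difference of 0.05 (95% interval -0.08 to 0.18). Liph, a membrane phospholipase gene, had dim signals of 6.47, 6.61 and 6.38 against 6.51, 6.48 and 6.29, a difference of -0.06 (95% interval -0.27 to 0.15). Neither gene separated the genotypes.

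Across Etv5, the nearest measured gene was Crygs, a lens crystallin gene, with 6.39, 6.43 and 6.37 in the wild type against 6.45, 6.41 and 6.38 in the knockout, a difference of 0.02 (95% interval -0.10 to 0.13). Tbccd1, whose protein helps to place the centrosome and Golgi, gave 10.64, 10.69 and 10.80 against 10.57, 10.75 and 10.57, a difference of -0.08 (95% interval -0.26 to 0.10). Dnajb11, encoding a co-chaperone of the endoplasmic reticulum, gave 11.48, 11.48 and 11.38 against 11.39, 11.37 and 11.33, a difference of -0.08 (95% interval -0.21 to 0.05). All 3 genes had overlapping groups. Dgkg lies between Etv5 and Crygs in the gene table and was not measured here.

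The neighbours that serve protein turnover, transcription and RNA differed little between the genotypes. Of 8 genes 7 were measured and none passed limma, at differences of -0.08 to 0.07, with no unadjusted p under 0.05. Over all genes 4.43% passed and 13.4% had such a p, so none among 7 says little about the group. Psmd2, a subunit of the regulatory cap of the proteasome, gave 13.04, 13.07 and 12.98 in the wild type against 13.03, 13.06 and 12.96 in the knockout. Its difference was -0.01 (95% interval -0.14 to 0.12) on a probe set numbered among chromosome 10 genes and 0.00 (95% interval -0.12 to 0.13) on the one numbered among chromosome 16 genes.

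Rfc4, a subunit of the clamp loader of DNA replication, gave 13.45, 13.47 and 13.42 in the wild type against 13.38, 13.43 and 13.28 in the knockout, so that knockout sample 3 was the lowest and knockout sample 2 lay within the wild-type range. Its difference was -0.08 (95% interval -0.22 to 0.06). Eif4a2, an RNA helicase of translation initiation, lies a few places before Rfc4 and differed by -0.03 (95% interval -0.14 to 0.09). Polr2h, a subunit shared by the nuclear RNA polymerases, differed by 0.07 on its brightest probe set and by 0.11 on a second one numbered among chromosome 12 genes (95% intervals -0.13 to 0.26 and -0.02 to 0.24). The ABC-family ATPase gene Abcf3 differed by 0.06.

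Genes of membrane traffic and the secretory pathway differed little as well. All 7 were measured, and none passed limma or reached an unadjusted p under 0.05. Beside 4.43% and 13.4% of all genes, that is no result particular to these 7. Ap2m1, the cargo-binding subunit of the clathrin adaptor AP-2, gave 12.27, 12.25 and 12.33 in the wild type against 12.33, 12.48 and 12.37 in the knockout. Its knockout values were all the higher ones, though the closest pair was level at this rounding, and the difference of 0.11 did not pass (95% interval -0.03 to 0.25; limma adjusted p = 0.639). Alg3, a mannosyltransferase gene of N-glycan assembly, differed by 0.13 (95% interval -0.05 to 0.31). Ece2, a relative of the endothelin-converting enzyme, differed by -0.05 on each of its probe sets, and Tmem41a by -0.02.

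Among the signalling genes, 6 of 8 were measured and none passed limma (beside 4.43% of all genes), with 1 unadjusted p under 0.05. That gene was Clcn2, a voltage-gated chloride channel gene, with 8.48, 8.68 and 8.42 in the wild type against 8.74, 8.76 and 8.68 in the knockout. The highest wild-type and lowest knockout values were level at this rounding, and the difference was 0.20 (95% interval 0.01 to 0.39; limma unadjusted p = 0.0412, adjusted p = 0.414). Unadjusted p-values under 0.05 were found for 3 of the 34 neighbours and 13.4% of all genes.

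Dvl3, a dishevelled protein of Wnt signalling, differed by -0.02 (95% interval -0.22 to 0.17), and Map3k13, a kinase upstream of JNK, by -0.11 (95% interval -0.28 to 0.07). Camk2n2, an inhibitor of calcium/calmodulin-dependent kinase II, differed by 0.11, and the BMP antagonist gene Chrd by 0.03. Lpp, which encodes a LIM protein of cell adhesion sites and closes the list, had 3 probe sets that differed by -0.03, 0.11 and 0.19, none of which passed (95% intervals -0.31 to 0.25, -0.04 to 0.25 and -0.02 to 0.40).

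Among the remaining genes, Magef1 rose and 6 of 7 did not pass. Rtp4, an interferon-induced chaperone of receptor transport, was dim at 7.00, 6.94 and 7.04 in the wild type against 6.96, 6.93 and 6.92 in the knockout. Its groups overlapped, and its difference was -0.06 (95% interval -0.18 to 0.07). Its relative Rtp1, which brings olfactory receptors to the cell surface, differed by -0.01, the peroxisomal beta-oxidation gene Ehhadh by -0.06 and Fam131a by 0.06. Of these 7 genes, 5 lay below the olfactory receptor guide of 7.29: Crygs, Liph, Rtp1, Rtp4 and Ehhadh.

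**Figure D3:**
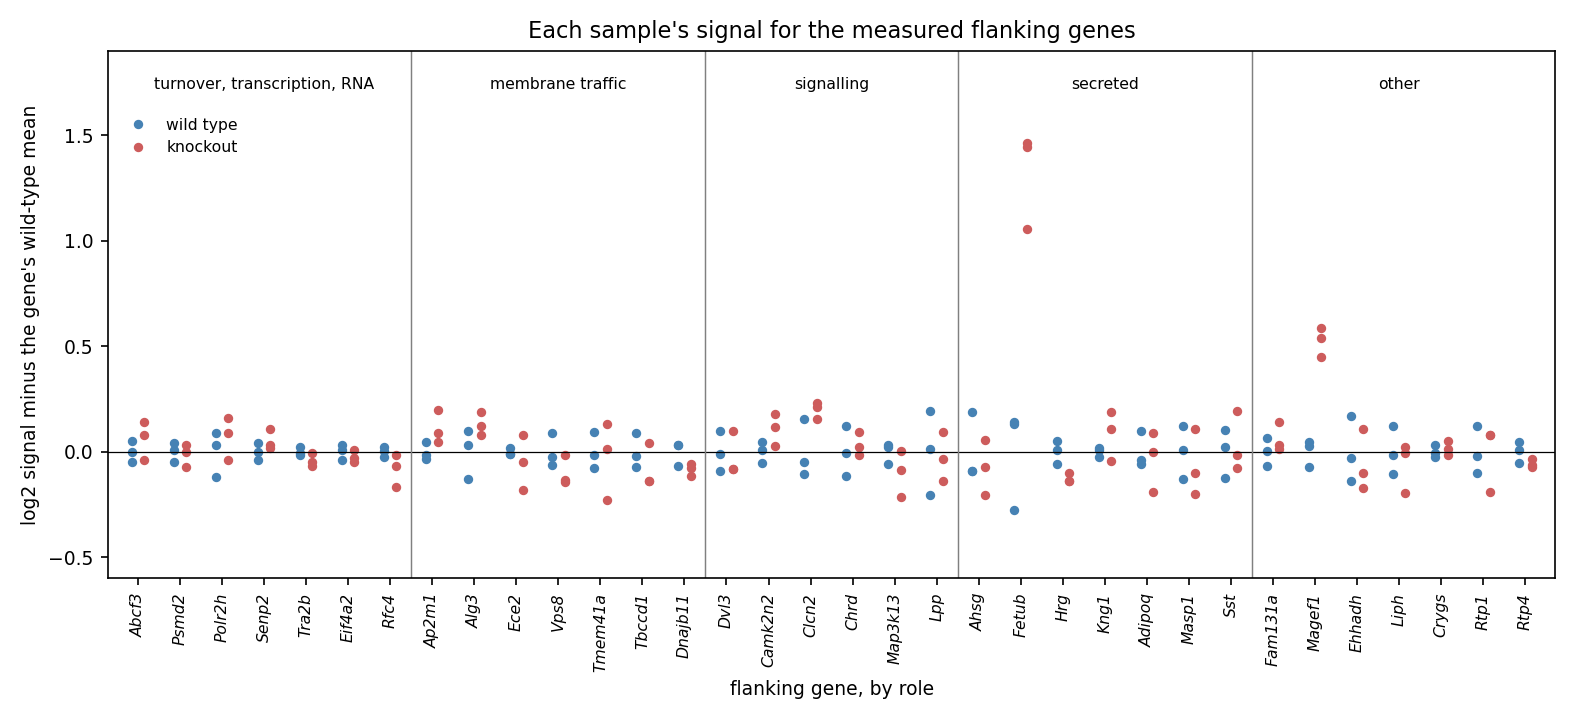
Log2 signal of each sample minus the wild-type mean of the same gene (y axis) for the 34 measured neighbours (x axis, grouped by role), with 3 wild-type (blue) and 3 knockout (red) points per gene. The knockout points of Fetub and Magef1 stand above 0.4 and those of the other 32 genes lie between -0.23 and 0.24.

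The stretch from Dvl3 to Lpp holds 10 further measured genes that are not in the list, and 1 of them passed. St6gal1, whose enzyme adds terminal sialic acid to N-glycans and makes the ligand of the B cell receptor inhibitor CD22, stands 38 places after Etv5. It gave 10.75, 10.75 and 10.79 in the wild type against 10.16, 10.34 and 10.16 in the knockout, with no overlap. Its difference was -0.54 ± 0.0663 (SE; 95% interval -0.70 to -0.38; limma adjusted p = 0.00973). The call was lost without wild-type sample 1 (-0.55, adjusted p = 0.0549) or knockout sample 3 (-0.51, adjusted p = 0.0538). The measured genes next to it in the order, BC106179 and Rtp1, differed by -0.02 and -0.01. Both were below the olfactory receptor guide of 7.29 on average (6.95 and 6.88), where small changes could not be seen. Bcl6, the repressor gene of germinal centre B cells, is also in this stretch and differed by -0.03 (95% interval -0.25 to 0.19).

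The calls were also counted by distance from Etv5. Within 10 places of Etv5, 4 genes were measured, all of them before it (Tmem41a, Liph, Senp2 and Tra2b); none passed limma, and none had an unadjusted p under 0.05. On the other side the first measured gene, Crygs, stands 11 places after Etv5. Within 20 places 1 of 15 passed, within 40 places 3 of 28 (10.7%), and within 80 places the same number of 68 (4.41%). Beyond 80 places, 28 of the 579 measured genes of chromosome 16 passed (16 higher and 12 lower, 4.84%), beside 4.44% of 18458 genes on the other autosomes. The 3 calls within 40 places were Fetub, Magef1 and St6gal1, of which 2 were higher and 1 was lower. No test of clustering was made.

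Genes elsewhere in the genome that work with the neighbours passed at a share near that of all genes. Of 115 measured, 17 had an unadjusted p under 0.05, beside 13.4% of all genes. Lists of complex partners and relatives were drawn up for 13 of the 37 genes, with 115 of 125 partners measured, and 3 rose and 1 fell (3.48%, beside 4.43% of all genes). None of 16 proteasome cap subunits, partners of Psmd2, passed limma. Nor did any of 12 genes of eIF4F and its regulators or 11 RNA polymerase II subunits. The same holds for 9 splicing activators and 8 genes for SUMO and its proteases. No gene of these lists had an unadjusted p under 0.05. Of 8 genes for clamp loaders and their clamp and of 7 genes for AP-2 and clathrin, none passed. In each of these 2 lists, 2 genes had an unadjusted p under 0.05. Of 7 genes of the HOPS and CORVET complexes none passed and 1 had an unadjusted p under 0.05. Their list medians lay between -0.028 and 0.027.

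Single partners did change. Axin2, a feedback inhibitor that Wnt signalling induces, was the 1 riser among 8 genes of the list beside Dvl3, from 7.53 ± 0.0535 to 8.12 ± 0.101 (SD, n = 3 each), a difference of 0.59 (limma adjusted p = 0.0083), while Dvl3 itself did not pass (-0.02). Dgkh, a diacylglycerol kinase gene like Dgkg, rose by 0.29 (adjusted p = 0.0286) as 1 of 8. It lost its call in each of the 6 fits without 1 sample (adjusted p 0.0795 to 0.149). Its mean signal of 7.50 was little above the olfactory receptor guide of 7.29. Of the 8 genes, 2 were higher and 6 lower in the knockout, with a list median of -0.063. Dgka was among the lower ones (-0.26, limma adjusted p = 0.0806). In this list 3 genes had an unadjusted p under 0.05, and the groups did not overlap in 37.5%. Among 12 interferon response genes beside Rtp4, the guanylate-binding protein gene Gbp3 rose by 0.51 (adjusted p = 0.0029) and the RNA sensor gene Ifih1 fell by 0.55 (adjusted p = 0.0101), and 10 did not pass. Ifih1 lost its call without wild-type sample 1, knockout sample 2 or knockout sample 3 (adjusted p 0.0505 to 0.0582). Of 9 chaperones of the endoplasmic reticulum beside Dnajb11, none passed limma and 3 had an unadjusted p under 0.05, beside 13.4% of all genes. The list median was -0.096, with Pdia6 at -0.25 (limma adjusted p = 0.0639). The groups did not overlap in 5 of the 9 (55.6%), beside 20.5% of all genes. That share was 50% in the interferon response list, 42.9% for AP-2 and clathrin and 24.3% over all 115 partners.

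**Figure D4:**
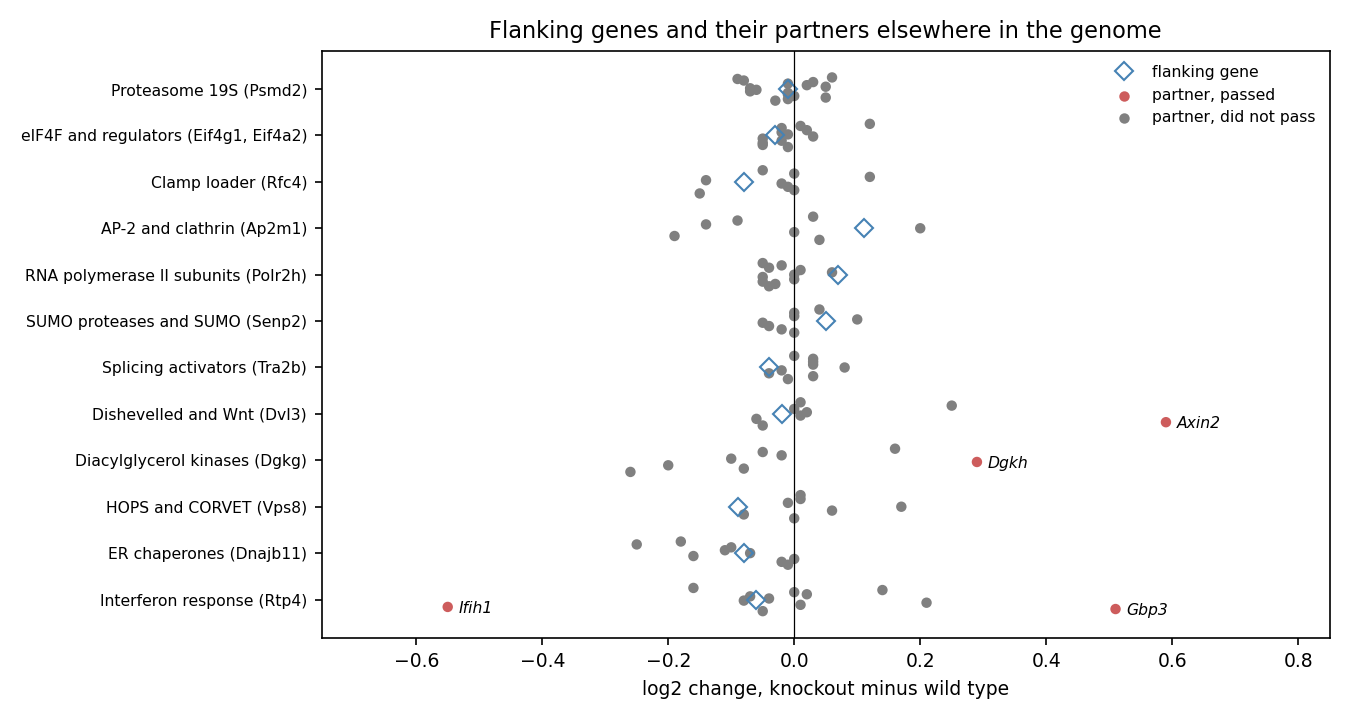
Log2 change, knockout minus wild type (x axis), of partner genes elsewhere in the genome (points, red where they passed) and of the flanking gene each list belongs to (blue diamonds), by list (y axis; Eif4g1 and Dgkg have no value). Of the 115 partners, 107 lie within 0.2 of 0, and Axin2, Dgkh, Gbp3 and Ifih1 passed.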

How the data were processed

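Biotin-labelled RNA of 6 samples was read on 1-colour Affymetrix arrays, per the labels. The deposited table holds log2 values per probe set, made by the authors with RMA and Partek 6.5, per the submitters' processing notes; the scale follows from the values (2.58 to 14.7). RMA compresses differences of dim probe sets. The chip definition and any filter were not given in the sources used here. Genotypes came from the sample titles, and gene names from a platform annotation table (21789 probe sets with 1 symbol, 19938 genes). Of these genes, 19856 matched RefSeq GRCm38.p6 by gene identifier, which gave the gene order. The array's build is not given, so the only positions printed are those of the promoter windows, on GRCm38.p6.

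limma 3.58.1 (R 4.3.3) was run on the whole table with lmFit and eBayes (no trend, covariate or filter), Benjamini-Hochberg over 35556 probe sets, two-sided, threshold 0.05. Exact permutation of 3 against 3 cannot go below p = 0.10 and was not used. A probe set's place was read from the chromosomes of the 6 nearest probe sets in number, 3 on each side.

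The members, partner lists, markers and naming rule were chosen with earlier results of these data known. All members are named. Values in every sample are given for members that passed or whose groups did not overlap, for the 3 nearest measured neighbours on each side of Etv5 and for the 3 members of highest signal; Ahsg and Rtp4 were added after their values were seen. Other genes named are Etv5, partner genes that passed and genes within 40 places that passed; further names were added after their values were seen. No label says that the sample numbers of the titles pair the samples, so the main fit has no replicate block. Alternatives were the replicate block, cyclic loess, quantile or median normalization, array weights, only single-gene probe sets, no probe sets of the dimmest 40%, a robust variance trend, each sample left out, probe-set means, other thresholds and, chosen after seeing the data, probe sets numbered among chromosome 16 genes.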

Additional observations from a re-analysis of the deposited data

How the results depend on the processing

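Fetub and Magef1 kept their direction in all 15 alternative fits (1.18 to 1.45 and 0.49 to 0.56), and lost their call in 3 and 2 of them, by little (highest adjusted p 0.054 and 0.0561); St6gal1 lost its call in 3 (highest 0.0611). The count of 2 passing neighbours was 0 with the replicate block, where Fetub, Magef1 and St6gal1 had adjusted p of 0.054, 0.0561 and 0.0611, and 0 to 2 over fits without 1 sample. No label says that the sample numbers pair the samples. Same-numbered deviations from the genotype means correlated at -0.12, 0.016 and 0.259, beside -0.349 to 0.311 for differing numbers. So few correlations cannot decide whether the numbers mark pairs, and the calls lost under the block stand as a limit. The median of the neighbours was -0.023 to 0.012 without 1 sample. Groups apart numbered 9 with cyclic loess and 6 to 12 without 1 sample, where fewer samples separate more easily. The Etv5 probe set numbered on chromosome 16 differed by -0.43 with the replicate block (adjusted p = 0.144), -0.44 with quantile normalization (0.0815) and -0.44 with cyclic loess (0.055), and by -0.48 to -0.35 without 1 sample. Windows of 10 and 20 places held 0 and 1 passing genes beside 3 within 40. Using probe sets numbered among chromosome 16 genes left the count at 2. The cause of these shifts was not tested. With no detection calls, signal near background limits what dim neighbours can show.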
